A study of Arabidopsis thaliana with 12 samples.

Results

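The comparison set libraries labelled rdd against libraries labelled Col-0, both from plants in regular soil. It was made up of the 6 columns of the count table named for these samples, of 12 libraries in the whole series. Col-0 is the reference accession of Arabidopsis thaliana. The rdd plants are, per the labels, a triple mutant in the Col-0 background; by its usual meaning in this field, rdd stands for mutations in ROS1, DML2 and DML3, genes of DNA demethylases. All plants were 2 weeks old, grew in soil and were taken whole, roots and shoots together. The regular soil groups, called Col-0 control and rdd control here, held 3 libraries each, and neither received YC4-R4. The other 6 libraries, Col-0 YC4-R4 and rdd YC4-R4, came from plants of the same labels in soil treated with YC4-R4 and serve here as a second, separate contrast of the genotypes. The design text calls the replicates biological. The sources used here name no mutant alleles, harvest time or growing batch, so whatever the 3 libraries of a group shared besides genotype cannot be told apart from it.

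ROS1, DML2 and DML3 belong to a family of DNA glycosylases that cut 5-methylcytosine out of DNA, after which repair puts back an unmethylated base. In vegetative tissue they keep methylation away from gene borders, often near transposons, and loss of ROS1 is known to silence some neighbouring genes, among them EPF2. Messenger RNA was measured here, and methylation was not.

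Gene counts summed to between 14465710 and 20281801 per library in regular soil, and 20651 genes had enough counts to be tested. Replicates lay close together. The biological coefficient of variation, which is the spread between replicates beyond counting error, was 3.07% in Col-0 control and 3.21% in rdd control, so that small differences pass the test. Each replicate pair still differed by more than counting noise (chi-square per degree of freedom 1.68 to 2.25). These values do not show at which step, from growth to library, the replicates became separate. Levels are CPM, read counts scaled to a common library size with TMM factors, which allow for differences in composition between libraries. A gene was called where its adjusted p was under 0.05 (edgeR quasi-likelihood test, with Benjamini-Hochberg adjustment across every gene tested). A log2 fold change is followed by ± its standard error, and a positive one means a higher level in rdd control.

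The mutated genes did not separate the genotypes as labelled. ROS1 (AT2G36490, chromosome 2, 15307907 to 15314807 in TAIR10.1) stood at 86.1, 81.5 and 78.3 CPM in Col-0 control and at 81.3, 77.3 and 81.1 CPM in rdd control. DML2 (AT3G10010, chromosome 3, 3081735 to 3088550) stood at 20.4, 19.7 and 19.6 CPM against 22.8, 18.6 and 20.7 CPM. In both genes the groups overlapped, and neither passed the test (log2 -0.04 ± 0.05 for ROS1 and 0.05 ± 0.08 for DML2; edgeR, Benjamini-Hochberg adjusted p = 0.521 and 0.665). DML3 (AT4G34060, chromosome 4, 16313366 to 16319426) stood at 4.5, 5.89 and 4.53 CPM in Col-0 control and at 3.41, 3.67 and 3.47 CPM in rdd control. Its groups did not overlap and it was called lower (-0.50 ± 0.20; edgeR, Benjamini-Hochberg adjusted p = 0.0431), but the call was lost in 7 alternative analyses, among them the one without Col-0 control replicate 2 (-0.36; edgeR, adjusted p = 0.227) and those without any 1 of the 3 rdd control libraries (0.0932, 0.0706 and 0.0954). The mutant alleles are not named, and a count over a whole gene does not show whether the gene is mutated. The counts do not bear out the label rdd and cannot show it to be wrong. Why ROS1 and DML2 were not lower in rdd control was not tested, nor was an exchange of genotype and soil labels between libraries. Every direction given here is between libraries as labelled.

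Among loci whose expression is known to follow DNA methylation, 6 could be tested. Of these, 2 were called higher and 1 lower in rdd control, and 3 had groups that did not overlap. Over all tested genes 20.9% were called higher and 23.0% lower, and the groups did not overlap in 52.7%. Counts over 6 loci cannot be told apart from these shares. EPF2, a peptide gene of stomatal patterning, stood at 2.33, 2.8 and 2.66 CPM in Col-0 control and at 3.55, 3.57 and 3.03 CPM in rdd control, not overlapping but higher in rdd by a difference that did not pass the test (0.38 ± 0.21; edgeR, Benjamini-Hochberg adjusted p = 0.135). In the YC4-R4 libraries of both labels it was between 0.126 and 0.5 CPM. QQS, an orphan gene tied to starch content, stood at 4.7, 6.73 and 7.07 CPM against 3.89, 5.14 and 4.19 CPM. Its groups overlapped; it was called lower (-0.47 ± 0.17; edgeR, Benjamini-Hochberg adjusted p = 0.0238) and lost the call in 6 alternatives. MRD1, which overlaps another tested gene, was higher in rdd, at 45.5, 46.1 and 47.9 CPM against 34.9, 37.3 and 36.7 CPM (0.36 ± 0.07; edgeR, Benjamini-Hochberg adjusted p = 2.8e-05), while all 6 YC4-R4 libraries lay between 0.0511 and 0.5 CPM. For EPF2, QQS, MRD1 and DML3 the 12 libraries thus fell into a high and a low set by soil and not by genotype label. ALN, which encodes allantoinase of purine breakdown, was higher in rdd (0.58 ± 0.06; edgeR, Benjamini-Hochberg adjusted p = 6.0e-10). The histone demethylase gene IBM1 (0.15 ± 0.07) and the immune receptor gene RMG1 (0.51 ± 0.40) were not called (edgeR, Benjamini-Hochberg adjusted p = 0.0891 and 0.325). RMG1 had few counts, 34 over Col-0 control and 47 over rdd control, and ran from 0.04 to 1.01 in the alternatives. SDC, FWA and AT4G18650 had too few counts to be tested, with 13, 0 and 2 over Col-0 control and 8, 2 and 1 over rdd control.

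**Figure D1:**
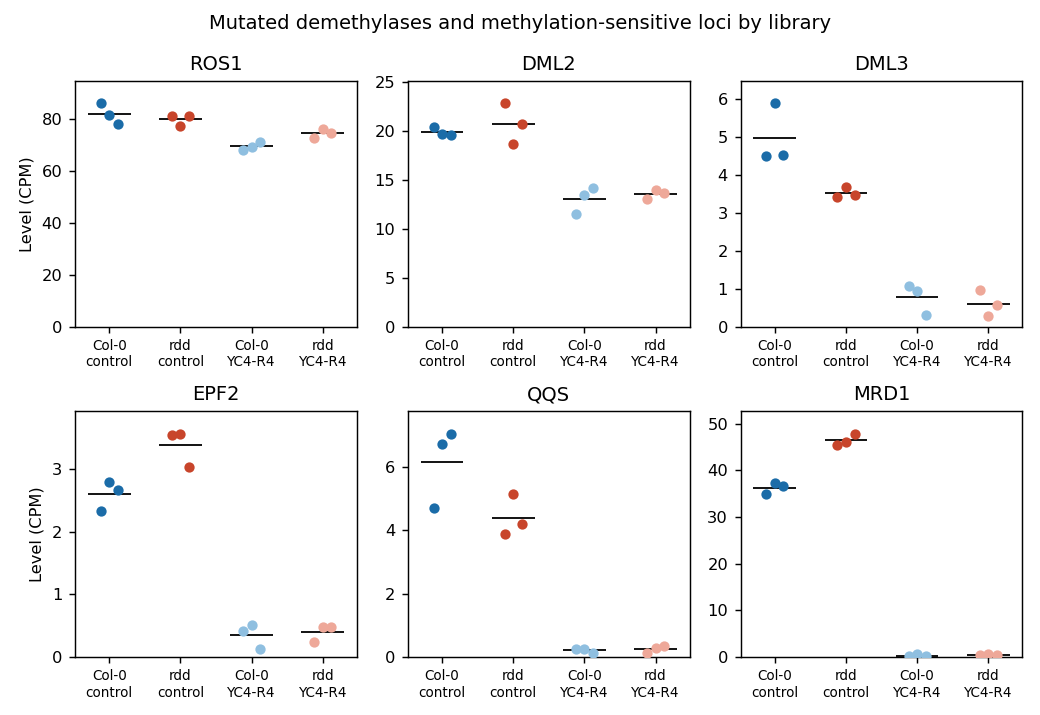
Level in CPM (vertical axes, each from 0) of ROS1, DML2, DML3, EPF2, QQS and MRD1 in every library of the 4 groups; points are libraries and bars are means of 3. ROS1 and DML2 overlap between the regular soil groups, and DML3, EPF2, QQS and MRD1 are far lower in the YC4-R4 libraries of both labels.

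No gene was on in one regular soil group and off in the other: with at least 50 counts over one group and at most 1 over the other taken as on and off, the number of such genes was 0 between Col-0 control and rdd control, and 0 between the YC4-R4 groups. It was 7 between Col-0 control and Col-0 YC4-R4, and 5 between rdd control and rdd YC4-R4. With both labels, AT2G01422 and AT4G17450 were on in regular soil and off in YC4-R4 soil, and AT3G61330 was the other way round. Of the 18 other genes of the methylation and demethylation machinery, 4 were higher and 1 lower in rdd control, with a median log2 fold change of -0.02; 2 were higher without Col-0 control replicate 3, and 2 were lower in 6 alternatives. The background in this comparison was large: 20.9% of all tested genes were called higher and 23.0% lower. Higher were IDM1, a histone acetyltransferase of the demethylation pathway (0.23 ± 0.06), AT3G14890 (0.30 ± 0.07) and, picked after their values were seen, DME (0.17 ± 0.05) and MBD7 (0.30 ± 0.09). AGO4, which carries the small RNAs that direct methylation, was lower (-0.30 ± 0.05). The 5 adjusted p-values ran from 1.3e-05 for AGO4 to 0.00951 for MBD7 (edgeR, Benjamini-Hochberg).

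Across all genes, 9062 were called (43.9% of those tested), 4319 higher (20.9%) and 4743 lower (23.0%) in rdd control. Counts in the gene lists below are to be read against these shares. Lists not marked as made after their values were seen were still chosen with earlier results of these data known. Most differences were small: the median absolute log2 fold change was 0.20 over all tested genes and 0.37 over the called ones. A 2-fold or larger difference was called for 1046 genes (5.07%), 474 higher (2.3%) and 572 lower (2.77%). The groups of 3 libraries did not overlap for 10876 genes (52.7%). Higher genes made up 47.7% of the calls with TMM scaling and 65.7% with library totals alone, since the TMM factors were 0.941 to 0.954 in Col-0 control and 1.00 to 1.01 in rdd control. That scaling moved the median of all genes by 0.091 on the log2 scale. The 2-fold changes were spread over the 5 nuclear chromosomes, with 2.39% to 2.92% of tested genes lower and 1.89% to 2.9% higher on each.

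**Figure D2:**
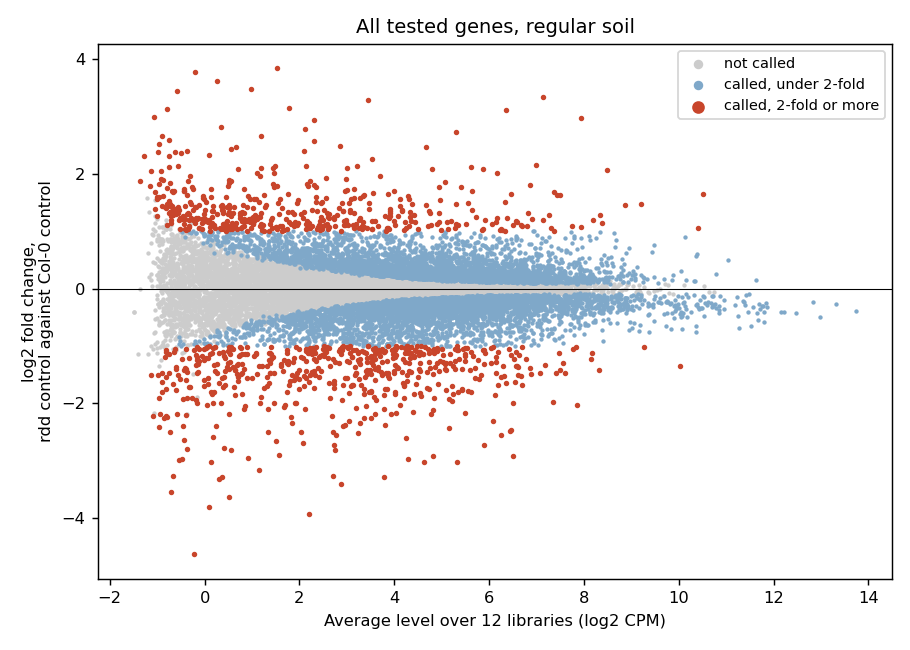
Log2 fold change of rdd control against Col-0 control (vertical axis) against the average level over 12 libraries (horizontal axis, log2 CPM), 1 point per tested gene. Called genes are blue under 2-fold and red at 2-fold or more; the 572 red points below 0 and 474 above it lie at low to high levels, and the most highly expressed genes hold none.

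A large change in 1 direction was seen in genes of the rapid response to touch, wounding and elicitors, which are induced within minutes of handling or attack. Of 27 such genes 23 were lower in rdd control, 21 of them 2-fold or more, and 3 were higher; the median was -1.37, against 0.01 over all tested genes. TCH4, a cell wall enzyme gene induced by touch, stood at 661, 652 and 633 CPM in Col-0 control and at 239, 251 and 242 CPM in rdd control. MYB77, a transcription factor gene of auxin and stress responses, stood at 111, 119 and 125 CPM against 14.9, 14.4 and 14.6 CPM, and the ethylene-response factor gene ERF104 at 230, 229 and 237 CPM against 55.8, 56.3 and 62.3 CPM. All Col-0 control libraries lay above all rdd control libraries in these genes, and the log2 fold changes were -1.41 ± 0.04, -3.02 ± 0.06 and -1.99 ± 0.05 (edgeR, Benjamini-Hochberg adjusted p = 2.0e-27, 1.2e-29 and 1.4e-27).

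Other members were picked after their values were seen. The defence regulator gene WRKY33, which overlaps another tested gene, was at 235, 246 and 256 CPM against 37.2, 44.6 and 50 CPM, and the zinc finger gene SZF1 at 557, 583 and 572 CPM against 124, 146 and 151 CPM. The calmodulin-like gene TCH2 was at 173, 170 and 181 CPM against 65, 70.9 and 67.1 CPM. Fold changes were -2.48 ± 0.07, -2.02 ± 0.05 and -1.37 ± 0.05 (edgeR, Benjamini-Hochberg adjusted p = 7.4e-27, 1.5e-26 and 2.3e-22). ERF5 and ERF6, ZAT10 and ZAT12, MYB44, the deadenylase genes CAF1A and CAF1B, and CML37 and CML38 were lower too, at -0.76 to -1.91. The members that did not follow were WRKY18 (1.32 ± 0.05), the low-count CML39 (1.69 ± 0.47), TCH3 (0.11 ± 0.04) and ERF1A, which was not called (-0.04 ± 0.06; edgeR, Benjamini-Hochberg adjusted p = 0.684).

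Promoters are shown as examples of where known rapid-response motifs lie, picked after the matches were seen: 4 of lower genes with several matches, and 1 of a higher gene with none. The letters searched on both strands were TTGAC, the core of the W-box bound by WRKY factors; CGCGTT, an element of rapid stress genes bound by CAMTA factors; CACGTG, the G-box; and GCCGCC, the GCC box of ethylene-response factors. The window was the 250 bases before the annotated start in TAIR10.1 (RefSeq), read 5′ to 3′ on the gene's strand, with matches in capitals, for SZF1 (chr3:20775970-20776219, plus strand), WRKY33 (chr2:16107985-16108234, plus), TCH2 (chr5:14999620-14999869, minus), the cold-response factor gene CBF2 (chr4:13016236-13016485, minus) and, for a gene that was higher, ERD5 (chr3:12451557-12451806, minus).
SZF1: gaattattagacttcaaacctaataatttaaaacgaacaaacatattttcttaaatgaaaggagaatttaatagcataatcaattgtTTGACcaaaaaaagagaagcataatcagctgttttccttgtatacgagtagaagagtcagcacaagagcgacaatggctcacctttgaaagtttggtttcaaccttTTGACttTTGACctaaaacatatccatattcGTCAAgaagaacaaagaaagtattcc
WRKY33: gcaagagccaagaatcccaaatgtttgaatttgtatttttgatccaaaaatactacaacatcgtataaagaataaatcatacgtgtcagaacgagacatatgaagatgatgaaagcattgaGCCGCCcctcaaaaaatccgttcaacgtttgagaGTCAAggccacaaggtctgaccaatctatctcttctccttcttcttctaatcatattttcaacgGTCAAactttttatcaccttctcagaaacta
TCH2: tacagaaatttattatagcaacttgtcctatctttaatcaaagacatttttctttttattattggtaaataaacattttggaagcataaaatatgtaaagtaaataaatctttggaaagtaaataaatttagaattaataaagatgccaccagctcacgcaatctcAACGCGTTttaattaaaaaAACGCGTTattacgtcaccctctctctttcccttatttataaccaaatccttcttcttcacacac
CBF2: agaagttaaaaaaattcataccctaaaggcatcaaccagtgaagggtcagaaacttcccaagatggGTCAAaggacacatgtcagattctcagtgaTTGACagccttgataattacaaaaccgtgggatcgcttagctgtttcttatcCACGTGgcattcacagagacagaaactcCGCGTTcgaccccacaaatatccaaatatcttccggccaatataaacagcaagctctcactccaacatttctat
ERD5: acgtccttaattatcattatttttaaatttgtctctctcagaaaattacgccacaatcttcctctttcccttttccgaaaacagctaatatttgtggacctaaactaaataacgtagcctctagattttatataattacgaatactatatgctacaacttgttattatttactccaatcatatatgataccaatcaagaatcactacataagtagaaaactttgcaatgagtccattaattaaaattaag

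SZF1 holds 4 W-box cores, WRKY33 2 W-box cores and 1 GCC box, and CBF2 2 W-box cores with 1 G-box and 1 CGCGTT element. In TCH2, CGCGTT was matched 4 times, because each of its copies of the palindrome AACGCGTT matches on both strands. ERD5 holds none of the 4 motifs. These examples do not stand for their groups: 9 of the 27 promoters of the rapid response list held no match, among them those of ERF104, ERF6 and MYB44, while 5 of the 10 highest genes held at least 1, as did 8 of the 10 lowest. Over the promoters of 20504 tested genes, 45.2% held a W-box core, against 53.3% of the 552 genes with a promoter that were 2-fold or more lower, 47.7% of the 474 that were higher and 63.0% (17 of 27) of the rapid response list. CGCGTT was in 2.85% of all promoters, 5.8% of the lower and 2.11% of the higher set. The G-box was in 7.24%, 9.06% and 8.86% of these sets, and the GCC box in 1.94%, 2.9% and 2.53%. These shares describe letters in a window and were not tested.

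Immune genes went both ways. Of 17 genes of pattern-triggered immunity, the defence started by microbial surface molecules, 8 were lower and 5 higher (median -0.21). The flagellin receptor gene FLS2 was higher, at 78.5, 79.2 and 82.7 CPM in rdd control against 27.7, 22 and 24.1 CPM in Col-0 control (1.70 ± 0.06; edgeR, Benjamini-Hochberg adjusted p = 6.1e-23), with the caution that it overlaps another tested gene. Other receptor genes, picked after their values were seen, went both ways: EFR was higher (0.94 ± 0.12), and LYK5 (-1.45 ± 0.08) and PEPR1 (-0.38 ± 0.05) were lower. The kinase gene MPK3 was at 119, 123 and 121 CPM against 339, 344 and 328 CPM, and the oxidase gene RBOHD, source of the oxidative burst, at 61.5, 65.1 and 68.3 CPM against 186, 183 and 185 CPM. Both were lower in every rdd control library (-1.48 ± 0.04 and -1.5 ± 0.05; edgeR, Benjamini-Hochberg adjusted p = 4.1e-26 and 1.2e-24), while WRKY29, picked after its values were seen, was higher (0.95 ± 0.16).

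In the salicylic acid list of 23 genes, 13 were lower and 0 higher in rdd control (12 and 1 with library totals alone), and the median was -0.41. The regulator gene WRKY70 was at 33.9, 43.4 and 40.9 CPM in rdd control against 216, 221 and 218 CPM in Col-0 control. CBP60G, a factor that activates salicylic acid synthesis, was at 10.1, 10.8 and 10.7 CPM against 45.5, 46.5 and 48 CPM. They differed by -2.46 ± 0.06 and -2.15 ± 0.07, and WRKY53, which overlaps another tested gene, by -1.83 ± 0.08 (edgeR, Benjamini-Hochberg adjusted p = 4.6e-28, 1.5e-23 and 5.3e-21). The synthesis gene ICS1 (-0.04 ± 0.10) and the marker gene PR1 (0.60 ± 0.41), picked after their values were seen, were not called (edgeR, Benjamini-Hochberg adjusted p = 0.749 and 0.248). PR1 had only 27 counts over Col-0 control and 40 over rdd control, so a difference could be missed. A run of 7 neighbouring genes from AT1G72890 to AT1G72950, most of them encoding proteins with the TIR domain of plant immune receptors, was lower throughout, with a median of -1.40; this list was made after its values were seen. Its strongest members, AT1G72920 and AT1G72910, were at 3.28, 4.83 and 4.02 CPM against 39.4, 41.1 and 38.4 CPM, and at 8.05, 9.34 and 10.4 CPM against 66.6, 67.8 and 75.6 CPM. Their fold changes were -3.27 ± 0.11 and -2.91 ± 0.08 (edgeR, Benjamini-Hochberg adjusted p = 4.4e-24 and 1.4e-26).

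In the jasmonate pathway, genes that inactivate the hormone were mostly higher and synthesis genes mostly lower. Of 9 inactivation genes 7 were higher and 1 lower, with a median of 1.02. CYP94C1, which oxidises jasmonoyl-isoleucine, the active hormone, was at 53.2, 48.5 and 46.9 CPM in rdd control against 9.15, 8.47 and 9.3 CPM in Col-0 control (2.46 ± 0.08). The oxygenase gene AT5G05600 was at 55.2, 47.2 and 46.1 CPM against 14.6, 13.7 and 12.5 CPM (1.85 ± 0.07). CYP94B3, of the same family as CYP94C1, went the other way, at 5.94, 6.82 and 6.22 CPM against 22, 22.3 and 21.6 CPM (-1.79 ± 0.10). None of the 3 overlapped between groups (edgeR, Benjamini-Hochberg adjusted p = 1.0e-24, 8.2e-22 and 2.0e-17).

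Of 13 synthesis genes, 7 were lower and 3 higher (median -0.24). The lipoxygenase gene LOX4 was at 27.7, 25.8 and 27.6 CPM against 92.2, 93.4 and 91.4 CPM, and LOX2, which supplies jasmonate in leaves, at 518, 494 and 514 CPM against 857, 803 and 831 CPM. These differed by -1.78 ± 0.05 and -0.71 ± 0.04, and AOS by -0.63 ± 0.04 (edgeR, Benjamini-Hochberg adjusted p = 2.4e-25, 3.6e-18 and 1.8e-16). Of 17 signalling genes 5 were higher and 3 lower, with a median of 0.09: the repressor genes JAZ6 (0.85 ± 0.05) and JAZ9 (0.65 ± 0.04) were higher, and the activator gene MYC2, which overlaps another tested gene, was lower (-0.63 ± 0.05). Members of both kinds also went the other way, here picked after their values were seen: JAZ5 (-0.33 ± 0.08) and JAZ7 (-0.51 ± 0.10) were lower and the activator gene MYC3 (0.18 ± 0.05) was higher. Of 4 output genes 3 were lower and 1 higher, with VSP2 at -0.41 ± 0.04, CORI3 at -0.97 ± 0.05 and TAT3 at 0.68 ± 0.14; their adjusted p-values ran up to 1.2e-04 (edgeR, Benjamini-Hochberg).

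Of 14 ethylene genes 9 were higher and 2 lower, with a median of 0.28. ACS6, a synthesis enzyme gene induced by touch and wounding, was at 21.5, 24.7 and 27.1 CPM in rdd control against 160, 166 and 164 CPM in Col-0 control (-2.73 ± 0.07). EBF2, which targets the master regulator EIN3 for breakdown, was at 231, 224 and 228 CPM against 92.1, 93.7 and 94.9 CPM (1.28 ± 0.04), and the receptor gene ERS1, which overlaps another tested gene, was higher by 0.71 ± 0.05. The adjusted p-values were 9.2e-27, 2.9e-25 and 3.5e-14 (edgeR, Benjamini-Hochberg).

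Of 9 tested abscisic acid receptor genes, a list made after its values were seen, 6 were higher and 1 lower, with a median of 0.54. PYL6 was at 23.3, 22.5 and 21.9 CPM in rdd control against 2.12, 2.24 and 2.6 CPM in Col-0 control, PYL4 at 215, 217 and 208 CPM against 49, 47.8 and 47.6 CPM, and PYL5 at 113, 107 and 103 CPM against 26.2, 23.2 and 26.5 CPM. These log2 fold changes were 3.28 ± 0.13, 2.15 ± 0.04 and 2.09 ± 0.05 (edgeR, Benjamini-Hochberg adjusted p = 8.1e-22, 3.1e-30 and 5.1e-27). Of 12 genes of the abscisic acid and drought response, 9 were lower and 1 higher (median -0.64); the higher one, HB12 (0.26 ± 0.11), lost its call in 7 alternatives. The lower ones included the phosphatase genes PP2CA (-1.10 ± 0.05) and HAB1 (-0.57 ± 0.06), which act as brakes on the pathway, and the proline synthesis gene P5CS1 (-1.34 ± 0.04), which overlaps another tested gene; the largest of these adjusted p-values was 2.1e-10 (edgeR, Benjamini-Hochberg).

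Of 10 cold genes, 5 were lower and 3 higher (median -0.24). CBF2, a factor that switches on cold acclimation, was at 1.57, 2.52 and 1.87 CPM in rdd control against 18.2, 19 and 21 CPM in Col-0 control (-3.26 ± 0.16; edgeR, Benjamini-Hochberg adjusted p = 1.4e-18). Its neighbours CBF1 and CBF3, named after their values were seen, were lower by similar amounts (-2.90 ± 0.21 and -3.63 ± 0.36), CBF3 from 158 counts over Col-0 control to 12 over rdd control. The 3 are close copies, and reads could be split between them. Genes known to act downstream went both ways: COR15A (-0.45 ± 0.06) and COR15B (-0.41 ± 0.06), picked after their values were seen, were lower, while COR47 (0.70 ± 0.04) and RD29A (0.77 ± 0.05) were higher (edgeR, Benjamini-Hochberg adjusted p = 1.5e-18 and 1.8e-15). Of 6 heat-shock genes, 5 were lower and 0 higher (median -1.2), among them HSP70 (-1.54 ± 0.07), HSP90.1 (-0.88 ± 0.06) and HSP101 (-0.89 ± 0.12), the last overlapping another tested gene.

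**Figure D3:**
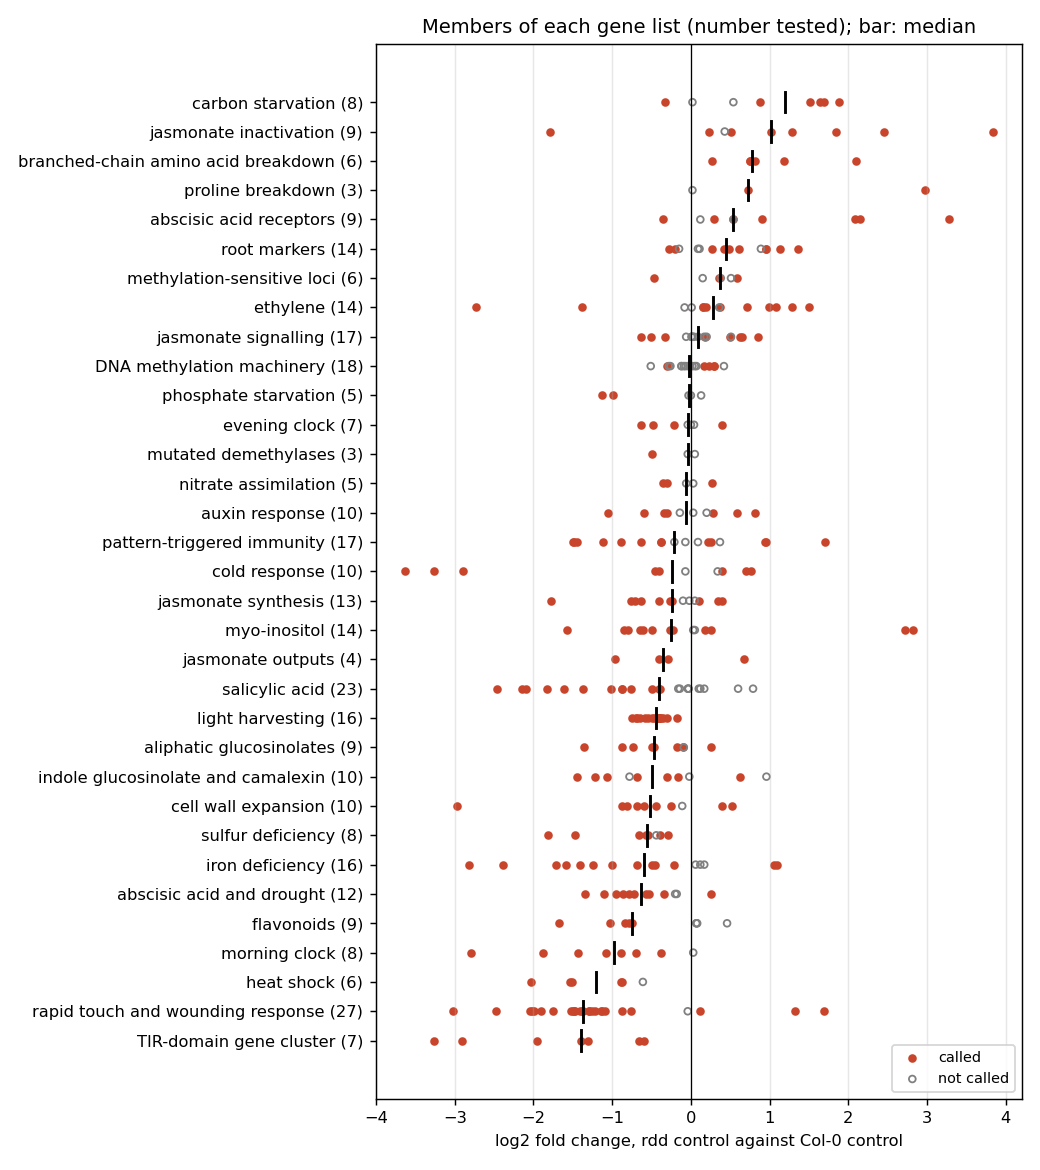
Log2 fold change of rdd control against Col-0 control (horizontal axis) for each tested member of the gene lists with at least 3 tested members (vertical axis, number tested in brackets). Filled points are called genes, open points are not, and bars are medians; the rapid response list has its median at -1.37 and the carbon starvation list at 1.2.

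Of 8 carbon starvation genes, which mark low sugar, 5 were higher in rdd control and 1 was lower, with a median of 1.2. ASN1, an asparagine synthetase gene repressed by sugar, was at 324, 332 and 353 CPM against 105, 105 and 104 CPM. DIN10, a dark-induced gene of the raffinose synthase family, was at 2700, 2550 and 2640 CPM against 860, 835 and 834 CPM, and SEN1 at 169, 171 and 187 CPM against 62.5, 57.9 and 64 CPM. The groups were wide apart in each (1.69 ± 0.04, 1.64 ± 0.03 and 1.52 ± 0.05; edgeR, Benjamini-Hochberg adjusted p = 2.2e-27, 2.0e-30 and 2.4e-24).

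ERD5, the proline dehydrogenase that starts proline breakdown in mitochondria, was at 577, 577 and 572 CPM in rdd control and at 72.2, 74.5 and 72.9 CPM in Col-0 control. The YC4-R4 libraries lay between, at 111 to 116 CPM in Col-0 and 212 to 220 CPM in rdd. Its log2 fold change in regular soil was 2.97 ± 0.04, with the smallest adjusted p of the genes named here (edgeR, Benjamini-Hochberg adjusted p = 2.6e-36). Of 3 proline breakdown genes 2 were higher and 0 lower, the other one being AT5G38710 (0.73 ± 0.15), and all 6 tested genes of branched-chain amino acid breakdown were higher, with a median of 0.78 and BCAT-2 at 2.1 ± 0.12; both lists were made after their values were seen, and BCAT-2 overlaps another tested gene. PCK2, a phosphoenolpyruvate carboxykinase gene that can feed amino acid carbon to sugar synthesis, was at 9.21, 8.24 and 8.04 CPM against 0.93, 1.74 and 1.03 CPM (2.78 ± 0.20; edgeR, Benjamini-Hochberg adjusted p = 5.5e-14).

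Myo-inositol, named in the series title, is made from glucose 6-phosphate by MIPS enzymes and broken down by MIOX oxygenases. Of 14 tested genes of its metabolism and transport 8 were lower and 4 higher (median -0.25), the latter count being 2 without rdd control replicate 2. The synthase gene MIPS1 was at 104, 104 and 110 CPM in rdd control against 180, 191 and 185 CPM in Col-0 control (-0.80 ± 0.04). The oxygenase gene MIOX2 was at 87.3, 89.3 and 82.1 CPM against 11.5, 13.7 and 14 CPM (2.72 ± 0.07). GOLS2, which uses myo-inositol to make galactinol, was at 1.64, 2.1 and 1.76 CPM against 4.96, 5.44 and 6.22 CPM (-1.58 ± 0.18). The adjusted p-values were 6.4e-19, 5.5e-28 and 3.3e-09 (edgeR, Benjamini-Hochberg). Further members, picked after their values were seen, were the low-count MIOX4 (2.82 ± 0.35), MIPS2 (-0.50 ± 0.08), the phosphatase gene VTC4 (-0.61 ± 0.07) and MIPS3, which was not called (0.05 ± 0.06; edgeR, Benjamini-Hochberg adjusted p = 0.547).

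Of 9 aliphatic glucosinolate genes, 7 were lower and 1 higher (median -0.47). The regulator gene MYB29 was at 8.19, 7.87 and 8.32 CPM in rdd control against 21.3, 22.2 and 19.1 CPM in Col-0 control (-1.36 ± 0.10), and the enzyme genes CYP79F1 and CYP83A1 were lower by less (-0.73 ± 0.04 and -0.49 ± 0.04). Of 10 genes of indole glucosinolates and camalexin 6 were lower and 1 higher (median -0.49), led by the regulators MYB51 (-1.45 ± 0.07) and MYB34 (-0.69 ± 0.06) and the enzyme CYP81F2 (-1.22 ± 0.10). Of 9 flavonoid genes, 5 were lower and 0 higher (median -0.75), among them CHS, the entry enzyme (-0.84 ± 0.07), FLS1 (-0.78 ± 0.12) and F3H (-1.03 ± 0.12), which overlaps another tested gene. The largest adjusted p of these 9 genes was 6.7e-07 (edgeR, Benjamini-Hochberg).

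Of 16 iron deficiency genes, 11 were lower and 2 higher (median -0.59). Higher were the root transporter gene IRT1, at 4.23, 3.88 and 3.41 CPM against 1.29, 2.41 and 1.69 CPM, and the reductase gene FRO2, at 4.5, 3.93 and 3.96 CPM against 1.45, 2.3 and 2.23 CPM (1.09 ± 0.23 and 1.05 ± 0.20; edgeR, Benjamini-Hochberg adjusted p = 1.5e-04 and 3.4e-05), both picked after their values were seen. Lower were AT2G30766, at 1.16, 1.47 and 1.05 CPM against 8.32, 9.98 and 7.85 CPM (-2.82 ± 0.18; it overlaps another tested gene), the regulator gene PYE (-0.68 ± 0.13) and the phloem iron transporter gene OPT3 (-0.46 ± 0.05), with adjusted p-values of 1.3e-15, 2.7e-05 and 4.4e-10 (edgeR, Benjamini-Hochberg). The 4 low-count regulators BHLH38, BHLH39, BHLH100 and BHLH101, with 34 to 60 counts each over Col-0 control and 6 to 29 over rdd control, were lower too (-1.0 to -2.39).

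Of 8 sulfur deficiency genes, 7 were lower and 0 higher (median -0.56). LSU2 was at 2.93, 2.94 and 4.02 CPM in rdd control against 11.5, 11.3 and 12.1 CPM in Col-0 control (-1.81 ± 0.13; edgeR, Benjamini-Hochberg adjusted p = 2.4e-14), and the sulfate reductase genes APR1 (-0.66 ± 0.04) and APR3 (-0.39 ± 0.04), which overlap other tested genes, were lower. Of 5 phosphate starvation genes, 2 were lower and 0 higher (median -0.03), namely the phosphatase genes PS2 (-1.13 ± 0.26) and PAP17 (-0.99 ± 0.15, overlapping another tested gene). Of 5 nitrate genes, 2 were lower (40.0%, against 23.0% of all tested genes) and 1 higher (20.0%, against 20.9%), with a median of -0.06. The reductase genes NIA2 (-0.30 ± 0.03) and NIR1 (-0.35 ± 0.04) were lower and the transporter gene NRT1.1 (0.27 ± 0.04) was higher.

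Light-harvesting genes, which mark green tissue, were lower in all 16 cases, or in 15 with DESeq2 or with library totals alone, with a median of -0.44. Their summed level was 48400 to 53400 CPM in rdd control and 68400 to 72500 CPM in Col-0 control. LHCB2.1 was at 1040, 1270 and 1230 CPM against 1880, 2030 and 2050 CPM (-0.75 ± 0.05), LHCB2.2 differed by -0.70 ± 0.04 and LHCB3, which overlaps another tested gene, by -0.65 ± 0.04 (edgeR, Benjamini-Hochberg adjusted p = 2.5e-16, 1.5e-16 and 2.6e-16). Several of these genes are near-identical copies, so the share of each is uncertain. Of 100 tested chloroplast loci (identifiers beginning ATCG) 74 were lower and 0 higher (median -0.52). Of 26 mitochondrial loci (ATMG) 10 were lower and 0 higher (median -0.47), against 23.0% lower and 20.9% higher of all tested genes. Both sets were taken up after their values were seen. The libraries are titled mRNA, and organelle loci held only 0.994% to 1.36% of the counts in regular soil. How far these counts follow expression in the organelles was not tested.

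Root markers, listed as a check on the mix of organs, were higher in 8 of 14 cases and lower in 2, with a median of 0.45; 5 were higher without Col-0 control replicate 1 or without rdd control replicate 1, and 1 was lower in 6 alternatives. The root aquaporin gene TIP2;3 was at 99.9, 94.6 and 99.4 CPM in rdd control against 62.9, 63 and 66.4 CPM in Col-0 control (0.61 ± 0.05), MRN1 differed by 0.96 ± 0.17, and PYK10, which overlaps another tested gene, was lower (-0.28 ± 0.03; edgeR, Benjamini-Hochberg adjusted p = 4.1e-13, 9.3e-06 and 4.1e-09). The summed level of the list, most of it PYK10, was 1140 to 1190 CPM in rdd control and 1300 to 1330 CPM in Col-0 control. In whole plants, fewer cells of a type and less RNA per cell cannot be told apart, and the part of the root to shoot mix in the other results was not tested. Flower markers were near 0: AP1, AP3, PI and AG had 3 to 13 counts over a group and were not tested, SEP1 and SEP3 were not called (edgeR, Benjamini-Hochberg adjusted p = 0.671 and 0.27), and the summed level was 1.81 to 2.39 CPM in the 6 libraries.

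Of 8 morning genes of the circadian clock 7 were lower and 0 higher (median -0.98). CCA1, a dawn factor, was at 10.6, 10.8 and 12.3 CPM in rdd control against 29.7, 31 and 31.3 CPM in Col-0 control (-1.44 ± 0.08), LNK1, which overlaps another tested gene, differed by -1.88 ± 0.08 and LNK2 by -0.70 ± 0.04 (edgeR, Benjamini-Hochberg adjusted p = 1.0e-17, 4.6e-21 and 1.6e-15). Of 7 evening genes, 3 were lower (42.9%, against 23.0% of all tested genes) and 1 higher (14.3%, against 20.9%), with a median of -0.04. GI (-0.48 ± 0.05) and ELF4 (-0.63 ± 0.06) were lower and PRR5 (0.39 ± 0.05) was higher. Of 10 cell wall expansion genes, 7 were lower and 2 higher (median -0.52). The expansin gene EXPA8 was at 6.41, 6.09 and 6.99 CPM against 45.6, 55.4 and 52.2 CPM (-2.97 ± 0.09), EXPA6 differed by -0.44 ± 0.04, and the xyloglucan enzyme gene XTH4 was higher (0.52 ± 0.04). Of 10 auxin response genes, 4 were lower and 3 higher (median -0.06), with IAA6 at -1.05 ± 0.13, IAA3, which overlaps another tested gene, at -0.34 ± 0.06 and IAA2 at 0.28 ± 0.05. The largest adjusted p of these 9 evening, wall and auxin genes was 9.3e-06 (edgeR, Benjamini-Hochberg).

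The 10 highest fold changes, counting called genes that reached an average log2 CPM of 1 and whose groups did not overlap, included, besides PYL6, ERD5, PCK2 and MIOX2, a gene of the jasmonate inactivation list, AT2G38240. This oxygenase gene was at 6.35, 4.93 and 4.3 CPM in rdd control against 0.465, 0.168 and 0.423 CPM in Col-0 control (3.84 ± 0.29). The chaperone genes AT1G72416, at 337, 310 and 297 CPM against 29.3, 32 and 32.4 CPM (3.33 ± 0.05), and AT4G21870, at 165, 156 and 145 CPM against 15.9, 17.2 and 21.1 CPM (3.11 ± 0.07), were far apart in well-counted libraries. The remaining genes were GAT1_2.1, a glutamine amidotransferase-like gene (3.15 ± 0.22), the AP2/ERF-type factor ABR1 (2.94 ± 0.20) and AT5G41761 (2.66 ± 0.30); GAT1_2.1 and ABR1 overlap another tested gene. The largest adjusted p of the 10 was 2.0e-09, for AT5G41761 (edgeR, Benjamini-Hochberg).

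The 10 lowest included CBF2, MYB77, EXPA8, AT1G72920 and AT1G72910, given with their groups, and 5 others. AT2G15020, of unknown function, was at 0.751, 0.682 and 0.606 CPM in rdd control against 9.41, 11.3 and 10.6 CPM in Col-0 control (-3.93 ± 0.18). The AP2/ERF-type factor gene AT1G33760 was at 2.46, 2.31 and 1.76 CPM against 23.7, 21.9 and 22.8 CPM (-3.40 ± 0.13), and AT4G27280, which encodes an EF-hand calcium-binding protein, at 30.4, 35.3 and 39.3 CPM against 259, 269 and 267 CPM (-2.91 ± 0.06). The immune receptor gene AT1G66090 (-3.01 ± 0.07) and the SAUR-like gene AT3G09870 (-3.16 ± 0.27) completed them, the latter with the largest adjusted p of the 10, 2.4e-12 (edgeR, Benjamini-Hochberg).

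**Figure D4:**
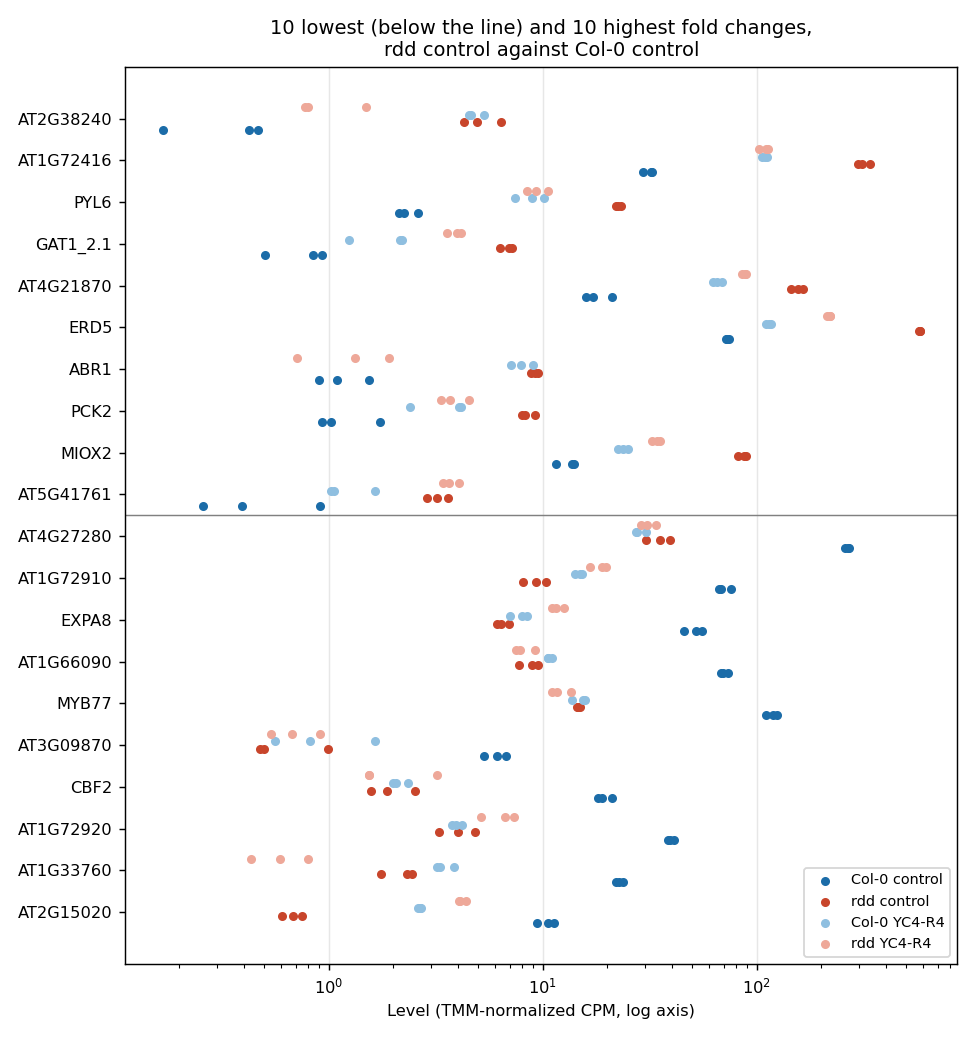
Level in CPM (horizontal log axis) of the 10 highest and 10 lowest fold changes of rdd control against Col-0 control, 1 point per library for the 4 groups. In most of the lower genes Col-0 control alone is high; in AT2G38240 and ABR1 the Col-0 YC4-R4 libraries are near the level of rdd control.

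The genotype contrast was set beside the same contrast in YC4-R4 soil, which shares no library with it. There 5935 genes were called (28.7%), 2956 higher (14.3%) and 2979 lower (14.4%), among them 90 higher (0.436%) and 311 lower (1.51%) by 2-fold or more. Replicates of rdd YC4-R4 were further apart than those of the other groups (biological coefficient of variation 5.81%, against 2.57% in Col-0 YC4-R4). The 4 groups shared 1 estimate of spread, and the effect of this on the calls in YC4-R4 soil was not tested. The contrasts differed between soils for 6319 genes (30.6% of those tested; edgeR interaction test, Benjamini-Hochberg adjusted p under 0.05). Of the 572 genes 2-fold or more lower in regular soil, 249 were called lower in YC4-R4 soil too, 63 were called higher and 260 were not called, and their median went from -1.38 to -0.31. Of the 474 higher genes, 120 were called higher, 44 lower and 310 not, and their median went from 1.3 to 0.2. These genes were chosen by the regular soil contrast, so a smaller median in the other soil is partly built in. Over all tested genes the fold changes of both contrasts correlated with Pearson's r = 0.26, a description across genes.

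In 413 of the 572 lower genes (72.2%), all Col-0 control libraries lay above all 9 other libraries, against 11.1% of all tested genes, and in 179 (31.3%, against 8.99%) all rdd control libraries lay below all 9 others. Of the 474 higher genes, rdd control was above all 9 others in 298 (62.9%, against 8.62%) and Col-0 control below all 9 others in 185 (39.0%, against 6.93%). The genes were chosen for the difference between these groups, so part of each share is built in. WRKY33 was at 26.3 to 32.1 CPM over the 6 YC4-R4 libraries, and there the genotypes did not pass the test (-0.01 ± 0.08; edgeR, Benjamini-Hochberg adjusted p = 0.926). MYB77 was at 11.1 to 15.7 CPM and WRKY70 at 44.3 to 53.8 CPM in those libraries, and the Col-0 control libraries were far above both.

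In YC4-R4 soil some of these genes kept their direction and others turned. TCH4 (-2.27 ± 0.04), LOX4 (-2.68 ± 0.06) and CYP94B3 (-4.20 ± 0.15) were lower in rdd there as well, and DIN10 (0.62 ± 0.03), ASN1 (0.69 ± 0.04) and ERD5 (0.94 ± 0.04) were higher (edgeR, Benjamini-Hochberg adjusted p at most 6.1e-15). The jasmonate inactivation genes turned: 9 of 9 were lower in rdd with YC4-R4, with a median of -1.25, and the contrasts differed between soils for all 9. CYP94C1 went from 2.46 ± 0.08 in regular soil to -3.34 ± 0.09, and AT2G38240 and ABR1 from 3.84 and 2.94 to -2.19 and -2.55. The rapid response list had 16 lower and 5 higher of 27 there, with a median of -0.31, and the root markers 1 higher and 1 lower of 14. In the cell wall expansion list 6 of 10 genes were higher there and 1 was lower (median 0.41).

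**Figure D5:**
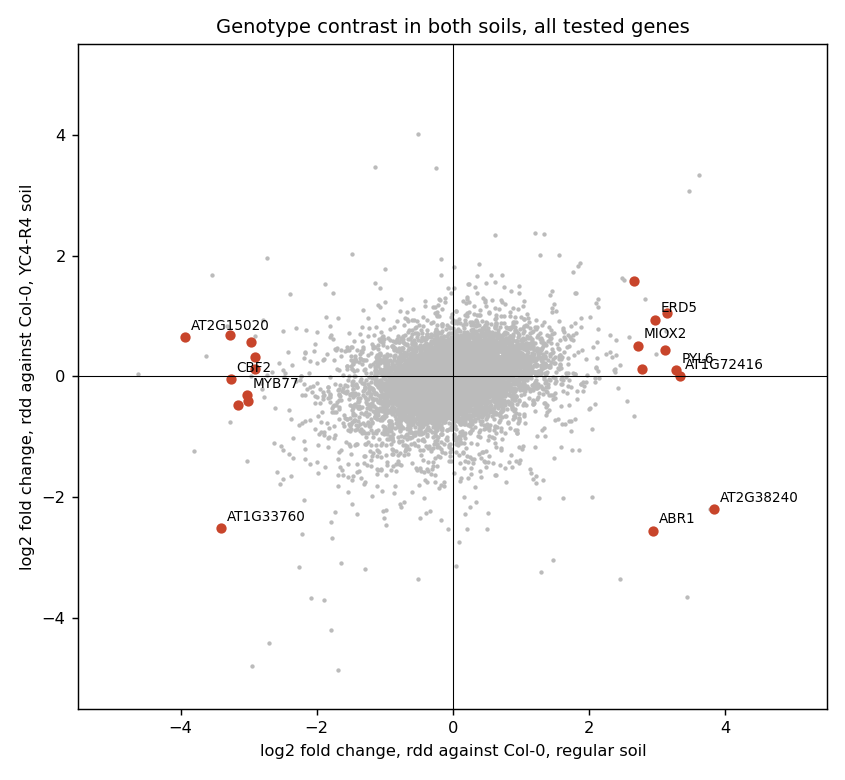
Log2 fold change of rdd against Col-0 in regular soil (horizontal axis) and in YC4-R4 soil (vertical axis), 1 grey point per tested gene; red points are the 10 highest and 10 lowest genes in regular soil, 10 of them with names. Most red points lie near 0 on the vertical axis, AT1G33760 is low in both soils, and AT2G38240 and ABR1 are high in one and low in the other.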

How the data were processed

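RNA was sequenced from 12 libraries in 4 groups of 3. RNeasy columns gave the RNA, 1 µg of which per sample went into directional NEBNext Ultra libraries, per the labels' protocols. The deposited values are whole-number counts per gene. The submitters' processing notes name Trimmomatic 0.36, HISAT2 2.1.0, HTSeq 0.9.1 and the build TAIR10; the strand setting of the counting is not given in the sources used here, so genes that overlap are uncertain (20 of the 108 genes named by rule overlap another tested gene).

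Libraries were grouped by the labels. Counts as deposited were fitted in R 4.3.3 with edgeR 4.0.16: filterByExpr, TMM, 1 mean per group over all 12 libraries (8 residual degrees of freedom), and the quasi-likelihood test of rdd control against Col-0 control, of the same contrast with YC4-R4, and of their difference. Benjamini-Hochberg adjustment ran over the 20651 tested genes. The fit was tested on simulated data. Names and coordinates come from TAIR10.1, which had an entry for 20505 tested genes; 126 of the 146 without one are organelle loci.

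The comparison, the 30 gene lists and the rule for named genes were chosen with earlier results of these data known, and 4 more lists after the values here were seen. By rule, names were given to the 10 genes with the largest fold change in each direction (called, average log2 CPM at least 1, groups not overlapping), all demethylases and methylation-sensitive loci, and up to 3 called members of every other list with the smallest adjusted p. Members named outside it were picked after their values were seen. Lists are described by counts and medians, with no test. Alternatives were DESeq2 1.42.0, RLE factors, library totals alone, other count filters, the 6 regular soil libraries alone, a replicate block and leaving out each library.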

Additional observations from a re-analysis of the deposited data

Results flagged for a closer look

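The genotype contrast differed between soils (edgeR interaction test, Benjamini-Hochberg adjusted p under 0.05) for 6319 genes. Listed here are those among the 10 highest and 10 lowest genes, the demethylases and the methylation-sensitive loci. Other named genes differed too, such as CYP94C1 and WRKY70, and are not listed. Values are the log2 fold change of rdd against Col-0 in regular soil minus that in YC4-R4 soil, from 3 libraries a group. Among the 10 highest genes in regular soil the difference was 6.03 for AT2G38240, 5.49 for ABR1, 3.33 for AT1G72416, 3.19 for PYL6, 2.69 for AT4G21870, 2.66 for PCK2, 2.21 for MIOX2, 2.1 for GAT1_2.1, 2.04 for ERD5 and 1.07 for AT5G41761. Among the 10 lowest it was -4.58 for AT2G15020, -3.95 for AT1G72920, -3.54 for EXPA8, -3.22 for AT1G72910, -3.21 for CBF2, -3.03 for AT4G27280, -2.70 for MYB77, -2.67 for AT3G09870, -2.61 for AT1G66090 and -0.88 for AT1G33760. These 20 genes were chosen for their regular soil contrast, which favours a difference of the same sign. Of the methylation-sensitive loci it was 0.50 for ALN and 1.56 for the low-count RMG1. Adjusted p-values were 0.0456 for AT5G41761, 0.0335 for AT1G33760 and 0.0358 for RMG1 (edgeR, Benjamini-Hochberg), and at most 3.3e-05 for the other genes listed here.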

How the results depend on the processing

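The 3 counts over all genes stayed within 1.5 times of their values in every alternative run checked. Runs that left out 1 YC4-R4 library were checked only for the soil differences and the number of genes called in regular soil. Leaving out 1 regular soil library gave 8052 to 8218 called genes and 1049 to 1083 with a 2-fold or larger difference. Without 1 YC4-R4 library, 8937 to 9515 genes were called. With any 1 of the 12 libraries left out, 5649 to 6357 genes had a contrast that differed between soils. DESeq2 called 7933 genes and library totals alone 10035. Over all genes, the deviations of same-numbered replicates from their group means were hardly correlated (0.0174, 0.000745 and -0.0171). A correlation over all genes cannot show whether they shared a batch that acted on few genes. The fit with the replicate block called 8976 genes, against 9062 without it.

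Of 105 tested named genes, 100 kept their direction and their side of the threshold in regular soil in all 13 alternative runs checked. ROS1, not called, was at 0.05 with library totals alone. DML2, not called, ran from -0.02 (without rdd control replicate 1) to 0.12 when 1 regular soil library was left out. The calls of DML3 and QQS were lost in 7 and 6 alternatives (QQS at -0.36 without Col-0 control replicate 3), and IBM1 was called in 2. The soil differences of AT5G41761, AT1G33760 and RMG1 lost their calls in several alternatives, at 0.73 to 1.09, -0.63 to -0.89 and 1.1 to 1.58. Library totals alone gave 4 higher iron deficiency genes, 5 auxin, 2 evening clock and 2 nitrate genes, against 2, 3, 1 and 1, and 5 alternatives gave 2 higher jasmonate output genes against 1. The cause was not tested. Depth limits the genes near 1 CPM, such as CML39, MIOX4, PR1, RMG1 and the BHLH regulators.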
